A study of Mus musculus with 7 samples.

Results

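Trpc1, which encodes a cation channel subunit of calcium entry and is the gene disrupted in the mice studied here, lies on chromosome 9, and 8 protein-coding genes within 10 Mb of it are described: Atr, Gk5, Nmnat3, Mras, Dzip1l, Cep162, Cyb5r4, and Acpp. They were taken by exact gene name from a table of 55401 genes and were chosen by their genotype differences, with the calls of DESeq2 and the fold changes in view. The differences between WT and Trpc1-/- samples given for them are therefore a description, without a test. All 8 passed the filter on low counts, among 16429 tested genes and 119 tested genes whose start lay within 10 Mb of that of Trpc1.

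RNA was sequenced from femoral and tibial cartilage of male C57BL/6J mice, together with subchondral bone by the Methods. The paper's Results name the femoral condyle and the tibial plateau, whereas its Methods name the femoral head. All mice had destabilization of the medial meniscus (DMM), a surgical model of osteoarthritis, in the right knee at 10 weeks of age, and were killed 2 weeks later. Each sample pooled tissue of 2 to 3 mice, and the labels gave 4 WT and 3 Trpc1-/- samples, whereas the Methods gave 3 and 4; the labels were used. Trpc1-/- mice carried Trpc1tm1Lbi, an allele that lacks exon 8 and so meets a premature stop codon, and their WT controls came from the same breeding colony. No sample came from a knee without DMM.

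A targeted allele is inherited together with the stretch of chromosome around it, so that comparing genotypes at 1 gene also compares the chromosome segments on which they sit. The 8 genes do unlike work. Atr is a kinase of the response to stalled DNA replication, Nmnat3 makes NAD, Gk5 belongs to the glycerol kinase family, Mras is a small GTPase, Dzip1l and Cep162 belong to the cilium and its basal body, Cyb5r4 is a reductase, and Acpp is an acid phosphatase. Counts per gene do not separate alleles, so the genotype at Trpc1 and the genotype of the segment around it cannot be told apart here.

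The estimated counts summed to between 52142451 and 118254070 per sample. WT replicate 1 had the lowest total and stood apart in several ways: the mitochondrial ribosomal RNA mt-Rnr2 took 19.62% of its counts against 12.3% to 15.43% in the others, the adult globins took 1.53% against 2.81% to 4.95%, and 14 neutrophil genes summed to 5553 CPM (counts scaled to a common library size by the TMM normalization of edgeR) against 13940 to 18648. The main values that rest on it are given with and without it. The level of Trpc1 itself was 4.62 ± 0.229 CPM in WT and 3.39 ± 0.379 CPM in the knockout (mean ± SD, n = 4 and n = 3), from counts over the whole gene, the deleted exon included. All 20 chondrocyte markers tested were detected in every sample, and so were 20 erythroid markers. The summed level of the erythroid markers, 19412 to 58911 CPM, exceeded that of the chondrocyte markers, at 4988 to 9065 CPM. Most of the erythroid sum was the adult globins, at 1.53% to 4.95% of counts. RNA of erythroid cells, chiefly globin RNA by this sum, was thus abundant in tissue labelled as articular cartilage.

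Of the 8 genes, 3 were higher and 5 were lower in Trpc1-/- samples. The samples of the 2 genotypes did not overlap for 7 of them, the exception being Acpp. Over all tested genes the groups did not overlap for 13.6% (7.15% higher and 6.42% lower in Trpc1-/- samples). DESeq2 called the same 7 genes at an adjusted P under 0.05, 3 higher and 4 lower, against 1.79% of all genes (0.962% higher and 0.828% lower), and nothing is read from either count because these values had chosen the genes. Of those 7, the gene closest to the threshold was Atr, at an adjusted P of 0.0393 in DESeq2, and the nearest genes of the window that were not called were Trpc1, just above the threshold, and the noncoding Snhg5 (0.0652). The quasi-likelihood test of edgeR, adjusted by Benjamini-Hochberg, called 0 of the 16429 genes, of which 1643 (10.0%) had an unadjusted P under 0.05. Log2 fold changes (logFC) and standard errors are from edgeR, as Trpc1-/- over WT.

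**Figure D1:**
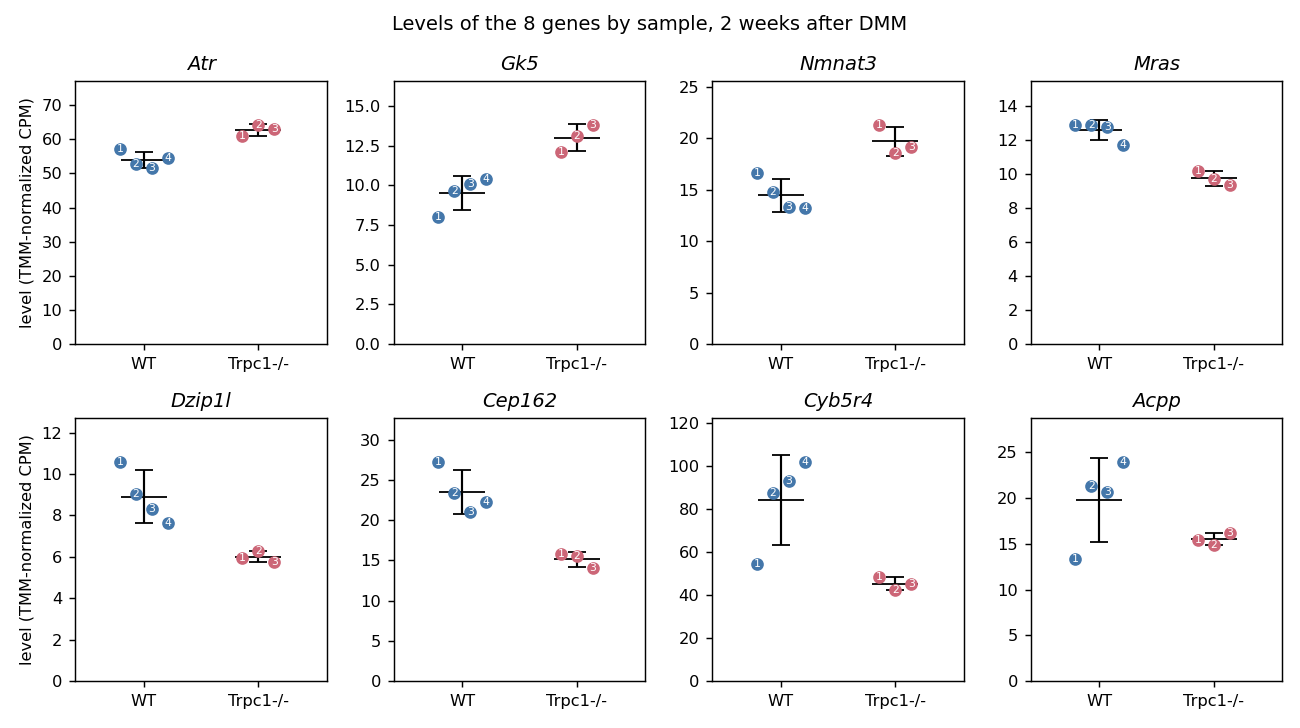
Each panel shows the level of 1 gene in TMM-normalized CPM on an axis that starts at 0, with 1 numbered point per sample (4 WT in blue, 3 Trpc1-/- in red) and the mean and SD in black. The 2 groups of points do not overlap except for Acpp, where WT replicate 1 at 13.3 CPM lies below the Trpc1-/- samples at 14.9 to 16.2 CPM.

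Of the 8 genes, the nearest to Trpc1 was Atr (ENSMUSG00000032409), which encodes the kinase that signals stalled replication forks to Chek1. It lies on the plus strand of chromosome 9 of GRCm38 from 95857597 to 95951781, 0.107 Mb from the edge of Trpc1. Atr was at 57.0, 52.7, 51.7, and 54.4 CPM in WT replicates 1 to 4 and at 60.9, 64.2, and 63.0 CPM in Trpc1-/- replicates 1 to 3. Every Trpc1-/- sample was above every WT sample, by a narrow step that left the means 16.2% apart (logFC 0.22, SE 0.07). Of the 8 genes it varied least within Trpc1-/- samples, with a coefficient of variation of 2.70%, and it also varied least in WT, at 4.32%. A small nuclear RNA, Gm24004, overlaps its exons on the same strand, and 2 antisense genes overlap them on the other strand. The authors' alignment was run with a strand setting. The 250 bases before its RefSeq start (GRCm38.p6, chr9:95857347-95857596, plus strand) are shown because this start is the closest of the 8 to Trpc1, with capitals marking 2 matches to GGGCGG, the GC box bound by SP1, 1 on each strand.

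Atr: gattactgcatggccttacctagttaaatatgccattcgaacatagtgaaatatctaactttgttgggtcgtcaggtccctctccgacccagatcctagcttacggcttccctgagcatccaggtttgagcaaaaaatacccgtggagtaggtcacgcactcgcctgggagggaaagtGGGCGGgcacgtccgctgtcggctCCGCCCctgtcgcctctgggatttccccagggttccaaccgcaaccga

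Gk5 (ENSMUSG00000041440; plus strand, 96119362 to 96184608), a member of the glycerol kinase family, lies 0.369 Mb from Trpc1, with Xrn1 between it and Atr. It was at 7.99, 9.63, 10.1, and 10.4 CPM in WT and at 12.1, 13.1, and 13.8 CPM in Trpc1-/- samples. The lowest of these values was WT replicate 1, and the other WT samples lay close together below all Trpc1-/- samples. The mean was 36.1% higher in Trpc1-/- samples (logFC 0.44, SE 0.11), and the logFC was 0.37 without WT replicate 1.

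Nmnat3 (ENSMUSG00000032456; plus strand, 98287435 to 98420438), 2.537 Mb from Trpc1, encodes an enzyme that joins nicotinamide mononucleotide to adenylate to make NAD and that serves red blood cells, which have no mitochondria. Its level was 16.6, 14.8, 13.3, and 13.2 CPM in WT and 21.3, 18.6, and 19.2 CPM in Trpc1-/- samples. The highest WT sample, replicate 1, stayed below the lowest Trpc1-/- sample (logFC 0.45, SE 0.10). Without WT replicate 1 the logFC was 0.51. A processed pseudogene, Gm28530, lies within Nmnat3, although their exons do not overlap.

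Mras (ENSMUSG00000032470; minus strand, 99385420 to 99437381), 3.635 Mb from Trpc1, encodes a RAS-family GTPase that with SHOC2 and protein phosphatase 1 activates RAF kinases. It was at 12.9, 12.9, 12.8, and 11.7 CPM in WT and at 10.2, 9.73, and 9.35 CPM in Trpc1-/- samples. The WT samples were tight, with replicate 4 a little below the rest, and all lay above the Trpc1-/- samples (logFC −0.36, SE 0.08). Its logFC was −0.35 without WT replicate 1.

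Dzip1l (ENSMUSG00000037784; plus strand, 99629496 to 99669256) lies 3.879 Mb from Trpc1, and its product sits at the ciliary transition zone, the gate at the base of the primary cilium. It was at 10.6, 9.03, 8.33, and 7.61 CPM in WT and at 5.94, 6.29, and 5.77 CPM in Trpc1-/- samples. WT samples were spread out and Trpc1-/- samples were close together, with a coefficient of variation of 14.5% against 4.46%, and none overlapped (logFC −0.57, SE 0.13). Without WT replicate 1, the highest of all, the logFC was −0.48.

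The other cilium gene, Cep162 (ENSMUSG00000056919; minus strand, 87189577 to 87255536), lies on the opposite side of Trpc1 at a distance of 8.45 Mb. Its product marks the distal end of centrioles and helps to assemble the transition zone. Cep162 was at 27.3, 23.4, 21.0, and 22.3 CPM in WT and at 15.8, 15.5, and 14.1 CPM in Trpc1-/- samples. The groups lay well apart, with the lowest WT sample 21.0 and the highest Trpc1-/- sample 15.8 CPM (logFC −0.64, SE 0.10). WT replicate 1 was again the highest, and the logFC was −0.56 without it.

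Cyb5r4 (ENSMUSG00000032872; plus strand, 87022014 to 87077774) is the neighbour of Cep162 and lies 8.627 Mb from Trpc1. It encodes a cytochrome b5 reductase that carries its own cytochrome b5 domain. Its level was 54.2, 87.5, 93.0, and 102 CPM in WT and 48.4, 42.1, and 45.3 CPM in Trpc1-/- samples. Here WT replicate 1 was far below the other WT samples and close to the Trpc1-/- samples. The logFC of −0.90 (SE 0.20) was the largest in size of the 8 genes, and 156 of all 16429 tested genes had a logFC at least as large in size. It was −1.06 without WT replicate 1. Because Cyb5r4 and Cep162 are adjacent and both lower, the 250 bases before each RefSeq start are shown (chr9:87021779-87022028, plus strand, and chr9:87255533-87255782, minus strand, printed 5′ to 3′). Capitals in Cyb5r4 mark 1 match to GCGCATGC, the NRF1 motif, and 2 adjoining matches to GGGCGG, all on the reverse strand. Cep162 held none of the motifs searched.

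Cyb5r4: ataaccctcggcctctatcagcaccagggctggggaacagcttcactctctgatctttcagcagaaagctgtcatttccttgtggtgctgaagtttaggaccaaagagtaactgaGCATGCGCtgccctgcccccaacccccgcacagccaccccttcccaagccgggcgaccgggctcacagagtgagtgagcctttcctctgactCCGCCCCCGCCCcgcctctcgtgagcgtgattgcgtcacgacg
Cep162: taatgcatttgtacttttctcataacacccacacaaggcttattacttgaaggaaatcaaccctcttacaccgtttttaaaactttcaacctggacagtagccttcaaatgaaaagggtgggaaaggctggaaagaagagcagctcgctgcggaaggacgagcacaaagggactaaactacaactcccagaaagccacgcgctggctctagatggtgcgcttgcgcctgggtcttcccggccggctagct

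Acpp (ENSMUSG00000032561; minus strand, 104288251 to 104337748), 8.538 Mb from Trpc1, encodes prostatic acid phosphatase, which as a membrane form also makes adenosine outside the cell. It was at 13.3, 21.3, 20.7, and 24.0 CPM in WT and at 15.4, 14.9, and 16.2 CPM in Trpc1-/- samples. WT replicate 1 was the lowest of the 7 samples, while the other WT samples were all above the Trpc1-/- samples. Its logFC of −0.36 (SE 0.18) was not called by DESeq2 (adjusted P 0.454). It was −0.51 without WT replicate 1, when the groups of Acpp did not overlap, as for 22.9% of all tested genes with 3 samples a group. The sequence before its start (chr9:104337723-104337972, minus strand) is shown because Acpp alone held a match to AGATAA, in capitals, which is bound by factors that control blood cell genes.

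Acpp: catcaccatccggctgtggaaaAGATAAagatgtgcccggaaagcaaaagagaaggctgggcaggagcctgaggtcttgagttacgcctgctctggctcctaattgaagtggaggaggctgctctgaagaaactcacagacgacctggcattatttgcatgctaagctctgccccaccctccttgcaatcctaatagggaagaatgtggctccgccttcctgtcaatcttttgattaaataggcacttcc

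All 8 genes matched the RefSeq table of promoters, with 9 windows, since Dzip1l has 2 starts. The matches given for the 8 genes come from 1 window each, which for Dzip1l is chr9:99629281-99629530. The motifs searched on both strands of all 32851 windows of 250 bases began with those of blood cell factors, AGATAA for GATA factors (found in 9.99% of windows), another form for the same factors, TGATAA (7.94%), the KLF motif CCACACCC (3.2%), and GAGGAAG for ETS factors (10.6%). E2F factors were represented by TTTCCCGC (0.895%) and by TTTGGCGC (0.417%). Motifs of general promoter elements were CCAAT for NFY (33.8%), the GC box GGGCGG for SP1 (32.7%), the TATA box TATAAA (12.4%), TGACGTCA for CREB (1.55%), and GCGCATGC for NRF1 (2.26%). Matches of different motifs did not overlap in the sequences shown. GGGCGG was found for 5 of the 8 genes (Atr, Gk5, Nmnat3, Mras, and Cyb5r4), which includes all 3 that were higher. TGACGTCA, the cyclic AMP response element, and TATAAA were found for Gk5 only, and CCAAT for Mras only. The GC content of the windows ran from 45.6% for Nmnat3 to 70.4% for Gk5, around a median of 52.4% over all windows. The RefSeq start of Nmnat3 lies 9135 bases inside the GENCODE gene. A match describes these letters and is not evidence of binding.

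Levels were also divided by the annotated exon length of each gene, which ran from 5004 bases for Nmnat3 to 23629 for Atr. The order of the genes on this scale depends on these lengths. Levels per kilobase of the expressed transcripts were not computed. Per kilobase of annotated exon, Cyb5r4 had the highest level in both genotypes. It had 12.5 ± 3.11 CPM per kb in WT and 6.72 ± 0.465 in Trpc1-/- samples (SD, n = 4 and n = 3). In WT it was followed by Nmnat3 (2.89 ± 0.314), Acpp (2.71 ± 0.624), Mras (2.44 ± 0.117), Atr (2.28 ± 0.0986), and Cep162 (2.03 ± 0.233 CPM per kb), with overlapping ranges over the samples between neighbours in this order. Gk5 (1.12 ± 0.126) and Dzip1l (1.11 ± 0.161 CPM per kb) were lowest and also overlapped each other. In Trpc1-/- samples Dzip1l was lowest, at 0.751 ± 0.0335 CPM per kb. None was near the floor of 3 counts, which was between 0.0244 and 0.0632 CPM.

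Of 119 tested genes in the window around Trpc1, DESeq2 called 10, and 7 of these were among the 8 genes. The other 3 were Tfdp2, Bcl2a1a, and Bcl2a1d, the last 2 (logFC 0.87 and 0.83, both near 1 CPM in WT) being close paralogs between which reads could have been split. Leaving the 8 genes out, DESeq2 called 1 gene within 1 Mb of Trpc1, 0 from 1 to 2 Mb, 0 from 2 to 5 Mb, and 2 from 5 to 10 Mb. Including them, these numbers were 3, 0, 3, and 4. Nothing is read from either set against the genes farther out, because the 8 genes had been chosen with these calls in view. These distances held 16, 9, 25, and 68 tested genes besides Trpc1, of which 2, 0, 3, and 3 were among the 8. DESeq2 called 5 of 180 from 10 to 20 Mb and 1 of 170 from 20 to 30 Mb (0.588%), against 1.79% of all tested genes. With the 8 genes counted, the directions were mixed at every distance, with 9 of 16 higher within 1 Mb and 29 of 68 higher from 5 to 10 Mb.

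**Figure D2:**
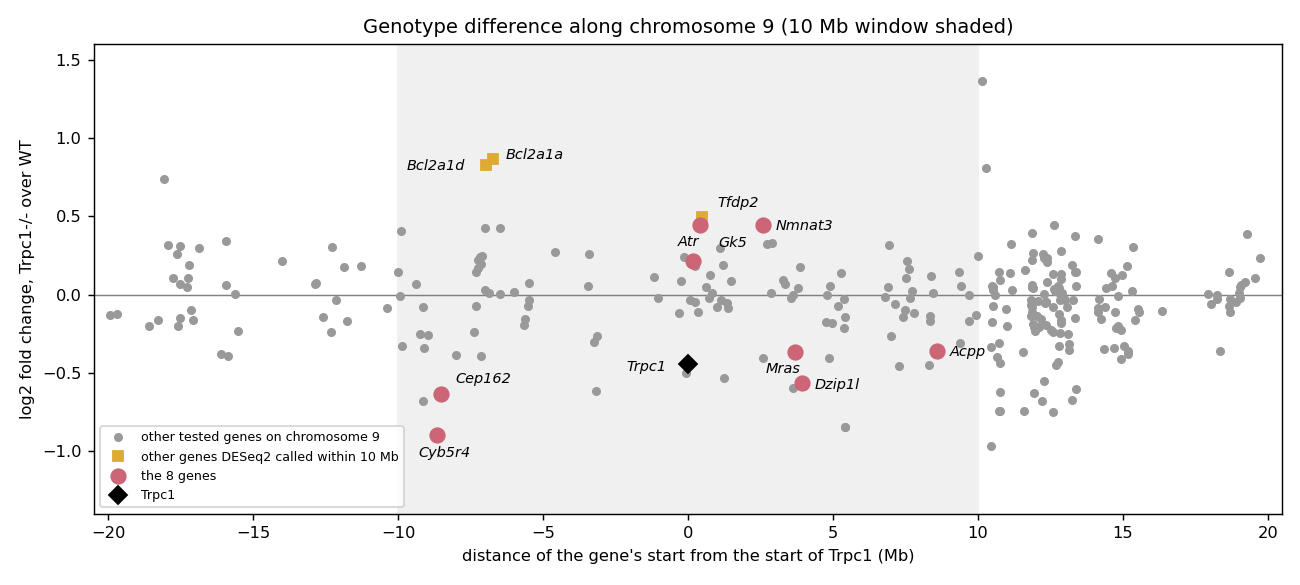
The logFC of each tested gene on chromosome 9 (y axis, log2) is plotted against the distance of its start from that of Trpc1 (x axis, Mb), with the 10 Mb window shaded. The 8 genes are in red, Trpc1 is a black diamond, and the 3 other genes called by DESeq2 in the window are yellow squares; the higher genes Atr, Gk5, and Nmnat3 lie within 3 Mb of Trpc1 on 1 side, and the lower ones lie on both sides.

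The genes on either side were examined next. The nearest tested protein-coding gene on each side gave 13 different genes besides the 8. Tfdp2, which encodes a partner of E2F transcription factors and lies next to Gk5, was at 202 ± 2.63 CPM in WT and 284 ± 16.0 CPM in Trpc1-/- samples, without overlap (logFC 0.49, SE 0.08). It was the only one of the 13 that DESeq2 called. Xrn1, between Atr and Gk5, had a logFC of 0.18 (SE 0.17) with overlapping groups. Armc8, next to Mras, had a logFC of 0.04 (SE 0.07), and Dnajc13, next to Acpp, 0.01 (SE 0.08). Esyt3, the other neighbour of Mras, had overlapping groups and a logFC of −0.60 (SE 0.24). Prss35 and Tbx18, which flank Cyb5r4 and Cep162, also had overlapping groups and a logFC below 0 (−0.26, SE 0.31, and −0.38, SE 0.23).

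As a ratio to a neighbour, which cancels what a sample does to both genes, 4 of the 8 genes did not overlap between genotypes for 1 of their neighbours. They were Nmnat3, Mras, and Dzip1l, which did not overlap on their own either, and Acpp, which did. The share of such ratios without overlap over all tested genes was not computed. Nothing is read from the count of 4, because the genotype difference had chosen the genes. The log2 ratio of Nmnat3 to Slc25a36 was between −2.65 and −2.30 in WT and between −1.98 and −1.76 in Trpc1-/- samples, a difference of 0.53. Mras to Armc8 differed by −0.41, Dzip1l to Dbr1 by −0.74, and Acpp to Mrpl3 by −0.47. Atr, Gk5, Cep162, and Cyb5r4 overlapped as ratios to both of their neighbours. For Cep162 and Cyb5r4 1 of the neighbours is the other of the pair, and 1 neighbour of Gk5 is Tfdp2, itself higher. Without WT replicate 1 these 4 differences were 0.57, −0.35, −0.55, and −0.59, again without overlap. The ratios of Dzip1l to Il20rb, of Acpp to Dnajc13, and of Cep162 to Cyb5r4 then did not overlap either.

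**Figure D3:**
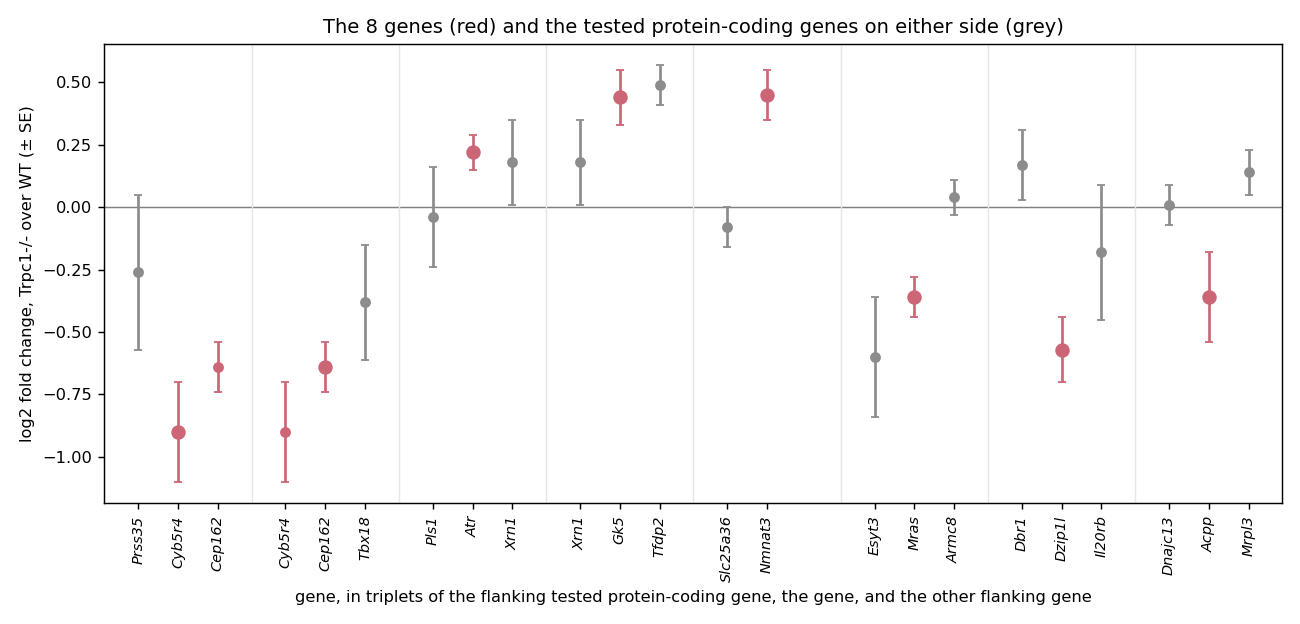
For each of the 8 genes (red, large points) the logFC with its standard error is drawn beside those of the nearest tested protein-coding genes (1 on either side, and 1 in all for Nmnat3; grey, or red where the neighbour is itself 1 of the 8). Tfdp2 (0.49) is close to Gk5 (0.44), and the neighbours of Mras (−0.36) are Esyt3 (−0.60), on the same side of 0, and Armc8 (0.04).

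The markers of 14 cell types were compared between the genotypes in the same samples. The erythroid score, a mean of log2 CPM over 20 genes, was 8.26 ± 0.09 in WT and 8.67 ± 0.14 in Trpc1-/- samples (SD, n = 4 and n = 3), and 20 of 20 genes were higher. This difference of 0.41 had a P of 0.0286 by an exact two-sided permutation test, the smallest possible with 35 splits, and an adjusted P of 0.2 by Benjamini-Hochberg over 14 cell type lists. Without WT replicate 1 the difference was 0.37, at an exact permutation P of 0.1, the smallest possible there. The chondrocyte score was lower by 0.54 in Trpc1-/- samples, with 20 of 20 genes lower and an exact permutation P of 0.0857 (adjusted P 0.286), and it was lower by 0.66 without WT replicate 1. The cycling cell score was higher by 0.32 (exact permutation P 0.0571, adjusted P 0.266; 0.21 without WT replicate 1), and the endothelial score was lower by 0.12 (exact permutation P 0.0286, adjusted P 0.2). The difference in the neutrophil score was 0.25, with an exact permutation P of 0.857, and −0.08 without WT replicate 1. In bulk tissue, fewer cells of a type and less RNA per cell cannot be told apart.

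With each of the 14 scores in turn held in the model, the logFC of all 8 genes kept its sign. For Acpp and for Dzip1l, however, it came within its error of 0 in some of these fits. The logFC of Mras moved least, between −0.43 and −0.33. It ranged from 0.17 to 0.40 for Atr, from 0.30 to 0.62 for Gk5, and from 0.25 to 0.57 for Nmnat3. It ranged from −0.75 to −0.26 for Dzip1l, from −0.75 to −0.40 for Cep162, from −1.58 to −0.46 for Cyb5r4, and from −0.83 to −0.01 for Acpp. The erythroid score gave the extreme for 6 of the 8 genes. With it held, the logFC was −0.26 (SE 0.29) for Dzip1l, −0.40 (SE 0.24) for Cep162, and −0.43 (SE 0.18) for Mras. It was 0.40 (SE 0.13) for Atr, −1.58 (SE 0.42) for Cyb5r4, and −0.83 (SE 0.42) for Acpp. These errors were larger than with genotype alone. The erythroid score did not overlap between genotypes (8.15 to 8.34 in WT, 8.53 to 8.8 in Trpc1-/- samples), which left the fit little to tell the score from genotype. With the chondrocyte score held, Nmnat3 was at 0.25 and Acpp at −0.05 (SE 0.27), and with the adipocyte score held Acpp was at −0.01 (SE 0.19). With the neutrophil score held edgeR called the genotype difference of 75 of 16429 genes, and with the T and NK cell score 36. Cep162, Cyb5r4, and Acpp were among both. With the macrophage or the cycling cell score held it called 47 each, Cyb5r4 among them. Nothing is read from these calls, because the genotype difference had chosen the genes. The sensory neuron score rested on 1 tested gene. These fits use 7 samples for 3 coefficients, and the part of cell composition in the differences was not tested.

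**Figure D4:**
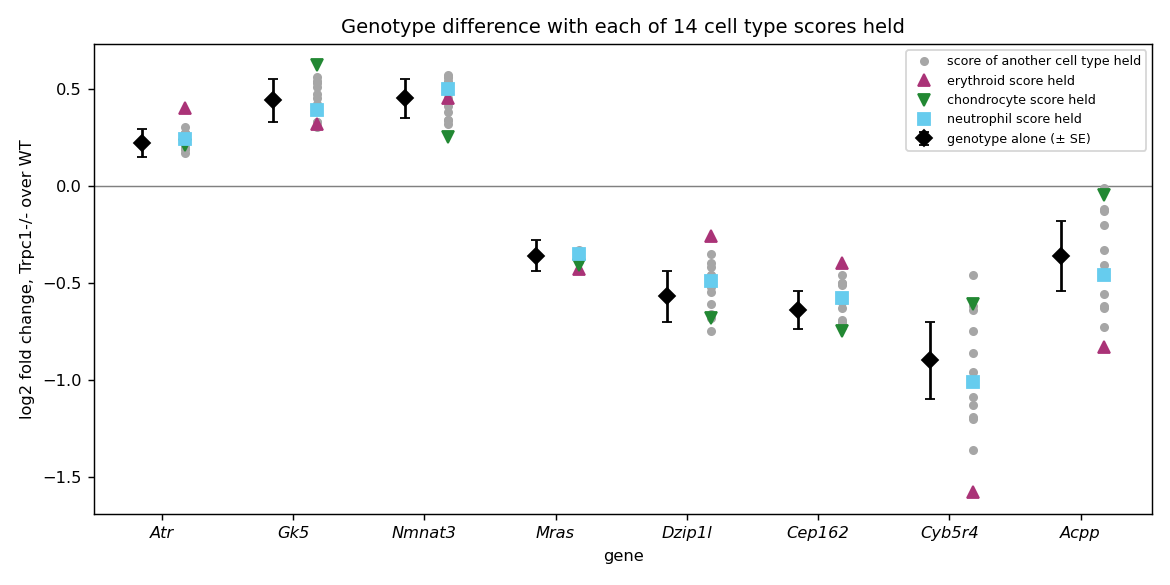
The logFC of each gene with genotype alone (black diamonds, bars are standard errors) is drawn beside its logFC with each of 14 cell type scores held (coloured for the erythroid, chondrocyte, and neutrophil scores, grey for the others). Every point is on the side of 0 of its diamond, some of those of Acpp close to 0 (−0.01 and −0.05), with Mras spread least and Cyb5r4 and Acpp most.

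The association of each gene with a cell type score within a genotype did not use the genotype difference. In edgeR's quasi-likelihood test with genotype and score in the model, the erythroid score was associated with 0 of the 16429 genes after adjustment (3832, or 23.3%, at an unadjusted P under 0.05, and 573 in DESeq2). The chondrocyte score was also associated with 0 (464, or 2.82%, at an unadjusted P under 0.05, and 19 in DESeq2). None of the 8 genes was called for either score by edgeR or DESeq2. Without Trpc1-/- replicate 2, however, edgeR called 216 genes for the erythroid and 3087 for the chondrocyte score, the latter including Cyb5r4 (slope 1.58, adjusted P 0.0267) and Acpp (slope 1.48, adjusted P 0.0231). The erythroid slope was 1.70 log2 units per unit of score for Cyb5r4 (SE 0.95) and 1.18 for Acpp (SE 0.95). Without WT replicate 1 these slopes were 0.39 and −0.14. For Nmnat3, whose product serves red blood cells, the erythroid slope was −0.01 (SE 0.55), and 0.68 without WT replicate 1.

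The neutrophil score, which was added after the data had been examined, was associated with 7276 of the 16429 genes (44.3%) after adjustment and 53.6% before it, so that a call for it is common. Among the 8 genes it was associated with 5. Cyb5r4 rose with the score by 0.60 log2 units per unit of score (SE 0.06, adjusted P 0.00089 in edgeR) and Acpp by 0.53 (SE 0.07, adjusted P 0.00212). Gk5 rose by 0.24 (SE 0.08, adjusted P 0.0446), Cep162 fell by 0.22 (SE 0.06, adjusted P 0.0277), and Dzip1l fell by 0.29 (SE 0.08, adjusted P 0.0241). Atr, Nmnat3, and Mras had slopes of −0.08, −0.18, and −0.05 and were not called. The association was not particular to neutrophil genes. Cyb5r4 and Acpp were also called with the T and NK cell score (adjusted P 0.00443 and 0.00388 in edgeR), the macrophage score (adjusted P 0.00394 and 0.0103), and the cycling cell score (adjusted P 0.00571 and 0.0262), and Cyb5r4 with the megakaryocyte score (adjusted P 0.0291). With the T and NK cell score Gk5, Dzip1l, and Cep162 were called as well (adjusted P 0.0289, 0.0344, and 0.0244 in edgeR). Cep162 was also called with the macrophage score (adjusted P 0.0339 in edgeR). The T and NK cell, macrophage, cycling cell, and megakaryocyte scores were associated with 37.9%, 47.4%, 44.4%, and 29.9% of all tested genes.

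Every one of these calls rested on WT replicate 1, which had the lowest neutrophil score, 7.733 against 8.754 to 9.17 in the other 6 samples. Without it 0 of the 16429 genes were called (1383, or 8.42%, at an unadjusted P under 0.05). The slope then was 0.56 for Cyb5r4 (adjusted P 0.557 in edgeR), 0.35 for Acpp (adjusted P 0.743), 0.08 for Gk5, −0.26 for Cep162, and −0.54 for Dzip1l. The calls of Dzip1l and Cep162 were also lost without WT replicate 3, at adjusted P of 0.0568 and 0.069, and that of Gk5 in 5 of the 7 fits that left out 1 sample. The calls of Cyb5r4 and Acpp were lost only without WT replicate 1. With the neutrophil score held, the logFC was −1.01 (SE 0.05) for Cyb5r4 and −0.46 (SE 0.06) for Acpp, somewhat larger in size than with genotype alone. For the other 4 scores, too, none of the 8 genes was called without WT replicate 1.

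**Figure D5:**
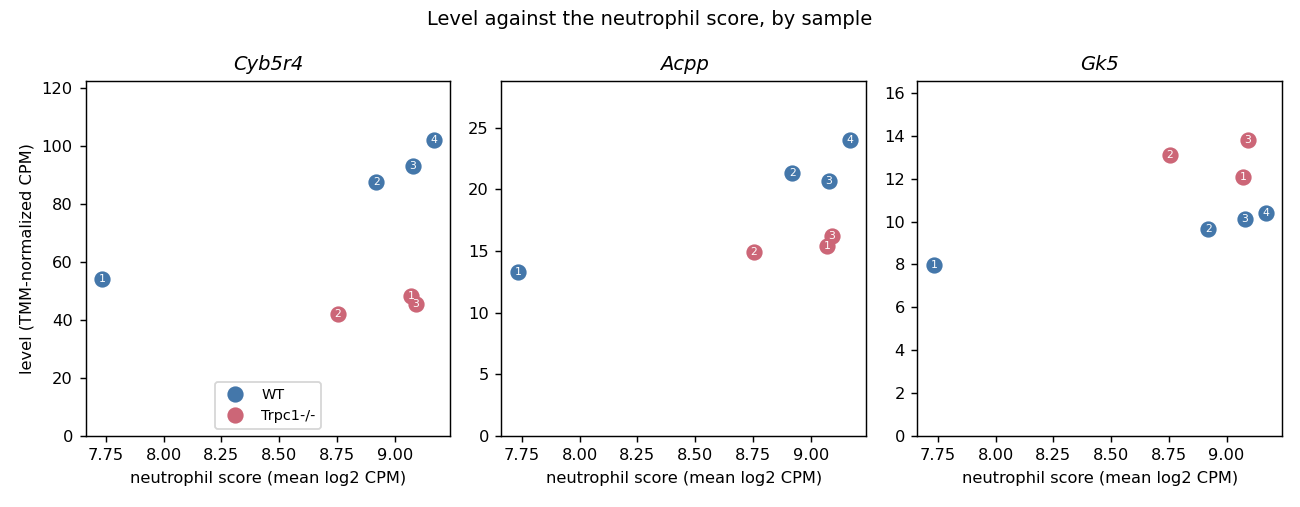
The level in TMM-normalized CPM (y axis from 0) of Cyb5r4, Acpp, and Gk5 is plotted against the neutrophil score (x axis, mean log2 CPM of 14 genes), with 1 numbered point per sample, WT in blue and Trpc1-/- in red. WT replicate 1 stands alone at a score of 7.733, and at scores from 8.754 to 9.17 the WT samples lie above the Trpc1-/- samples for Cyb5r4 and Acpp and below them for Gk5.

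Over the 7 samples Cyb5r4 and Acpp varied together, with a Pearson r of 0.90, and of 0.97 after the mean of each genotype was taken away. Dzip1l and Cep162 had an r of 0.97, and of 0.84 with genotype means taken away. These are descriptions over 7 samples that share their libraries, and WT replicate 1 is the extreme sample for each of these genes within WT. Without it, the r after genotype means were taken away was 0.68 for Cyb5r4 and Acpp and 0.47 for Dzip1l and Cep162. By Pearson r of log2 CPM over the 7 samples, the tested gene most like each was Dtl for Atr (0.987), Rhoa for Gk5 (0.984), Ces2g for Nmnat3 (0.991), Zfp629 for Mras (0.991), Trim3 for Dzip1l (0.996), Dapk1 for Cep162 (0.998), Antxr2 for Cyb5r4 (0.987), and Tnfrsf21 for Acpp (0.984). Of these, Rhoa lies on chromosome 9. The second most like gene of each had an r between 0.981 and 0.996.

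The partners of each gene were also counted, with the 8 genes themselves left out. EdgeR called 0 genes in each of the 7 family lists after adjustment. Of 16 tested genes of the ATR checkpoint 13 were higher and 3 lower in Trpc1-/- samples, and their median logFC was 0.14, against −0.0088 over all tested genes. Of these, 2 had an unadjusted P under 0.05 in edgeR, Hus1 of the 9-1-1 clamp (logFC 0.20, SE 0.07) and Tipin of the fork protection complex (logFC 0.35, SE 0.13), and DESeq2 called 0. The cycling cell score, higher by 0.32, moved in the same direction, and its part in these values was not tested.

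Of 14 tested entries of NAD synthesis and use, 8 were higher and 6 lower. Nnt has 2 entries under 1 symbol, between which reads could have been split, and they lay on opposite sides of 0 (logFC −0.96, SE 0.53, and 0.91, SE 0.44). DESeq2 called Nadk2, the mitochondrial NAD kinase, which was higher (63.1 ± 3.87 CPM in WT and 82.1 ± 8.34 CPM in Trpc1-/- samples, logFC 0.38, SE 0.09), and Nmnat2, which was lower (3.48 ± 0.631 and 2.05 ± 0.255 CPM, logFC −0.75, SE 0.19). Nmnat1, the nuclear enzyme of the same family as Nmnat3, was at 3.91 ± 0.554 and 3.74 ± 0.350 CPM (logFC −0.06, SE 0.16).

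Of 15 genes of the RAS and SHOC2 module 8 were higher and 7 lower, and DESeq2 called Ppp1cb, the catalytic subunit of protein phosphatase 1 that acts with Mras and Shoc2, which was higher (logFC 0.31, SE 0.08). Shoc2 itself was at 60.0 CPM in WT and 63.0 CPM in Trpc1-/- samples (logFC 0.07, SE 0.08).

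Of 19 genes of the ciliary transition zone and its surroundings, 7 were higher and 12 lower, around a median logFC of −0.15, and DESeq2 called 0. Of these, 3 had an unadjusted P under 0.05 in edgeR and all were lower, namely Dzip1, Tctn1, and Tctn2 (logFC −0.57, −0.26, and −0.55). Dzip1, the paralog of Dzip1l, was at 9.98 ± 2.65 CPM in WT and 6.71 ± 0.957 CPM in Trpc1-/- samples (logFC −0.57, SE 0.21), the same logFC as Dzip1l. The chondrocyte score, lower by 0.54, moved in the same direction, and its part in these values was not tested. Cep290, a large protein of the transition zone, had a logFC of 0.11 (SE 0.16).

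In the other 3 lists DESeq2 called 0. Of 6 genes of glycerol metabolism 5 were higher, among them Gpd1 (logFC 0.46, SE 0.14), while Gk, the main glycerol kinase, was at 20.9 ± 1.78 and 21.7 ± 1.28 CPM (logFC 0.06, SE 0.09). Of 7 genes of the cytochrome b5 system 2 were higher and 5 lower, and Cyb5r3, the main reductase, had a logFC of −0.03 (SE 0.14). Of 7 acid phosphatases and genes of adenosine handling 3 were higher and 4 lower. Among them Acp5, the enzyme of osteoclasts, had a logFC of −0.14 (SE 0.28), and Nt5e, which like Acpp makes adenosine outside the cell, had a logFC of −0.24 (SE 0.12). Nt5e, Pxylp1 of the same list, and Topbp1 of the ATR checkpoint lie within the same 10 Mb of Trpc1 as the 8 genes.

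The library names in the labels end in numbers, whose meaning the labels do not give. They are in the 1300s for WT replicates 1 and 2 and all Trpc1-/- samples, and in the 1700s for WT replicates 3 and 4. Within the 1300s alone the logFC was 0.19 for Atr, 0.55 for Gk5, 0.33 for Nmnat3, −0.40 for Mras, −0.71 for Dzip1l, −0.75 for Cep162, −0.65 for Cyb5r4, and −0.16 for Acpp. This comparison includes WT replicate 1 as 1 of its 2 WT samples. The 1700s hold WT samples only. Nothing in the labels says whether replicates were collected on different days, and P values here measure the spread between pools of mice.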

How the data were processed

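RNA-Seq was carried out on ribosome-depleted, stranded libraries of 7 pooled samples. Per the submitters' processing notes, adapters were trimmed with cutadapt 2.5, reads were aligned to GRCm38 with HISAT2 2.1.0, and abundance was estimated with StringTie 2.0.3. The authors deposited estimated counts per gene, which are whole numbers made from coverage and are not normalized, so reads shared between genes were assigned before this point. Gene positions were taken from GENCODE M21 and promoter windows from RefSeq (GRCm38.p6).

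In R 4.3.3, genes over 1 CPM in at least 2 samples were kept. After TMM normalization, edgeR 4.0.16 was run as a quasi-likelihood fit, genotype alone in the model, with Benjamini-Hochberg adjustment over all tested genes at 0.05. DESeq2 1.42.0, the study's method, and limma 3.58.1 (voom) were alternatives, as were other normalizations, filters, covariates, windows, and each sample left out. Standard errors were taken from the F statistic. Each score averaged log2 CPM (prior count 1) over its list and was compared by an exact two-sided permutation test. The fits were first tested on simulated data. The floor was 3 counts, which covers counting error only. The 8 genes, the marker and family lists, and the rule for naming genes (the 8 genes, their neighbours, the 2 most similar genes, of which the first is printed, other calls within 10 Mb, called list members, and the list members closest in function) were chosen with earlier results of these data known. List genes named at an unadjusted P were picked after their values were seen. Some genes covered by the lists or by this rule are not reported here.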

Additional observations from a re-analysis of the deposited data

Results flagged for a closer look

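In 2 of the 36 groups of 4 WT samples checked, 1 sample lay far from the others by Dixon's test at the 95% level, which chance does in about 1 of 20 groups. For Mras, WT replicate 4 was at 11.7 CPM and the other WT samples were at 12.8 to 12.9 CPM. For the T and NK cell score, WT replicate 1 was at 0.897 and the other WT samples were at 1.70 to 1.86.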

How the results depend on the processing

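The logFC of each of the 8 genes kept its sign under all 31 alternatives. Leaving out single samples gave the following lowest and highest logFC: 0.19 and 0.24 for Atr, 0.37 and 0.49 for Gk5, 0.39 and 0.51 for Nmnat3, −0.40 and −0.33 for Mras, −0.63 and −0.48 for Dzip1l, −0.69 and −0.56 for Cep162, −1.06 and −0.79 for Cyb5r4, and −0.51 and −0.25 for Acpp.

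EdgeR called 0 genes for genotype. DESeq2 called 294, limma-voom 1, edgeR with log2 library size as a covariate 3, and edgeR with a score as a covariate 75 (neutrophil), 36 (T and NK cell), 47 (macrophage), 47 (cycling cell), 9 (megakaryocyte), 3 (osteoclast), 1 (skeletal muscle), and 1 (sensory neuron). Leaving out single samples gave 0 to 49, the latter without WT replicate 1, when Cep162, Cyb5r4, and Acpp were called. Nothing is read from the calls of these genes, because the genotype difference had chosen them. The replicate block gave 0 calls (975 genes at an unadjusted P under 0.05); same-numbered samples correlated at −0.348, −0.205, and −0.044, so the numbers did not pair them, and no edgeR call changed.

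With the erythroid score in the model, 0 genes were called by edgeR, 573 by DESeq2, and 0 to 216 with single samples left out, the highest without Trpc1-/- replicate 2. With the chondrocyte score these counts were 0, 19, and 0 to 3087, again highest without Trpc1-/- replicate 2, when Cyb5r4 (slope 1.58) and Acpp (1.48) were called. With the neutrophil score 7276 genes were called, and 0 to 8108 with single samples left out. The erythroid score difference was 0.35 to 0.48 with single samples left out, at exact permutation P of 0.0667 to 0.1, the smallest those designs allow.

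No erythroid slope was called, and some turned in sign. That of Gk5 was 0.30, and −0.26 with z-scored genes. That of Nmnat3 was −0.01, and 0.01 in DESeq2, 0.01 with DESeq2 size factors, and 0.47 with z-scored genes. With single samples left out, erythroid slopes spanned −0.43 to 1.10 for Gk5, −0.65 to 0.68 for Nmnat3, −0.09 to 0.33 for Mras, and −0.14 to 2.17 for Acpp. Chondrocyte slopes spanned −0.17 to 0.12 for Atr, −0.80 to 0.10 for Dzip1l, −0.66 to 0.04 for Cep162, −0.17 to 1.58 for Cyb5r4, and −0.04 to 1.48 for Acpp. The neutrophil slope of Nmnat3 spanned −0.22 to 0.02. The causes were not tested.

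Groups of 7 of the 8 genes did not overlap (13.6% of all tested genes), and 6 with CPM from raw library sizes. With single samples left out the number was 7 to 8 (22.9% of all genes without WT replicate 1). As ratios it was 2 for the neighbour at lower coordinates and 2 at higher coordinates, alternatives chosen after seeing the data. For ratios the share over all tested genes was not computed. DESeq2 called 10 of 119 tested genes within 10 Mb of Trpc1, 6 of 51 within 5 Mb, and 3 of 26 within 2 Mb. Over all tested genes it called 1.79%. Of the 10, 7 were among the 8 genes, which had been chosen with these calls in view.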
